A study of Xenopus tropicalis with 12 samples.

Results

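Regions of thyroid hormone receptor (TR) binding that lay in the 5 kb flanks of genes were described in the intestine of Xenopus tropicalis tadpoles. Overlapping TR ChIP-Seq peaks of 12 libraries (1 bp or more) were merged, and a merged region was kept when all 3 libraries of at least 1 condition held a peak in it. Flank regions were set by their midpoint and the genes with a full gene row (a row of type gene) in the peak lists. The midpoint lay outside every such gene, within 5 kb of one and more than 1 kb from the start of any. There were 1728 flank regions among 15365 kept regions (11.2%). By the strand of the nearest gene, 915 of them (53.0%) were upstream and 813 were downstream. The other kept regions were 4731 in gene bodies, 433 within 1 kb of a gene start and 8473 over 5 kb from any gene.

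The intestines came from stage 54 tadpoles of 2 genotypes born to the same parents, TRα-/- (knockout of TRα) and WT. Tadpoles of each genotype were kept in 10 nM T3 for 18 h (T3) or without T3 (control), which made 4 conditions, TRα-/- T3, TRα-/- control, WT T3 and WT control. Each condition is 1 ChIP DNA sample from intestines of several tadpoles, sequenced as 3 technical replicates. The p-values of comparisons between conditions therefore measure only the spread of making and sequencing libraries. A difference between conditions cannot be told apart from a difference between groups of tadpoles or between ChIP samples. The sign-flip tests below compare sets of regions instead, over the means of the 4 conditions. The antibody recognizes both TRα and TRβ, so that TRβ is the receptor it can still pull down in TRα-/- intestine. No feature in the peak lists is named thra, so the knockout could not be checked at its own gene, and peak lists carry no expression by which the tissue could be checked.

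TRs are nuclear receptors that bind thyroid hormone response elements in DNA, mostly as heterodimers with retinoid X receptors. Without hormone the bound receptor recruits corepressor complexes, and with T3 it exchanges them for coactivators. T3 drives intestinal metamorphosis, in which most larval epithelial cells die and adult epithelial stem cells proliferate and differentiate. The sequence on either side of a gene holds promoter-proximal elements near the start, and enhancers can lie on both sides.

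The libraries held 17414 to 63333 peaks. The TRα-/- T3 libraries had the fewest (17414, 26018 and 30916), and WT control replicate 1 had the lowest median fold enrichment in flank regions (4.95, against 5.04 to 7.62 in the others). Fold enrichment is the pileup of fragments at a peak over the local background that the peak caller estimated in the same library. The lists hold no read totals and no input library was used for calling, so the depth behind a peak is unknown and a region without a peak is one that did not pass the threshold, not one without fragments.

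By their midpoints, flank regions were denser close to gene starts than farther upstream, and their density showed no such decline downstream of genes. Per Mb of sequence in which a flank region could lie, there were 25.6 regions at 1 to 2 kb upstream of a gene start, 18.0 at 2 to 3 kb, 17.7 at 3 to 4 kb and 13.8 at 4 to 5 kb. Downstream of the gene end the values were 12.4 in the first kb and 15.2, 14.7, 14.4 and 16.7 in the next 4. The decline upstream was present in regions of each condition counted alone. Regions shared by all 3 TRα-/- T3 libraries numbered 11.96 per Mb at 1 to 2 kb and 5.22 at 4 to 5 kb upstream, and those of TRα-/- control libraries numbered 14.2 and 8.06. The same values were 21.3 and 11.3 for WT T3 and 14.6 and 8.59 for WT control. Over 1 to 5 kb, the density upstream against downstream was 8.19 and 6.88 per Mb for TRα-/- T3, 9.89 and 7.67 for TRα-/- control, 15.7 and 13.01 for WT T3, and 10.9 and 8.96 for WT control. With full gene rows, upstream was thus the denser side in all 4 conditions, which share most of their regions and are not independent counts. Of the 328 regions centred 1 to 2 kb upstream, 193 had an edge within 1 kb of the gene start and 2 overlapped the gene, so much of the density next to the start belongs to regions that reach toward it. Without those 193 regions, 135 remained at 1 to 2 kb upstream, which is 10.6 per Mb of the same sequence. Upstream regions had a median width of 938 bp, so many centred near 1 kb reach within 1 kb of the start by their width alone. No other step was cut in this way. The value of 10.6 is therefore not comparable with the other steps and cannot show what the higher density nearest the start rests on. Among the 3 farther steps, the density at 4 to 5 kb was the lowest. Gene models set the classes as well. When gene extents were taken from any feature rather than from full gene rows, 77 of the 1728 regions (18 upstream and 59 downstream) had their midpoint inside a gene, and 38 lay within 1 kb of a start. With those extents the rule gave 901 upstream and 974 downstream regions, so the larger number then lay downstream. The densities given here hold for full gene rows only. The peak lists name only genes that were attached to a called peak, so the sequence counted lies around genes picked by these peaks. What this adds to the densities near genes was not tested, and the densities are a description.

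**Figure D1:**
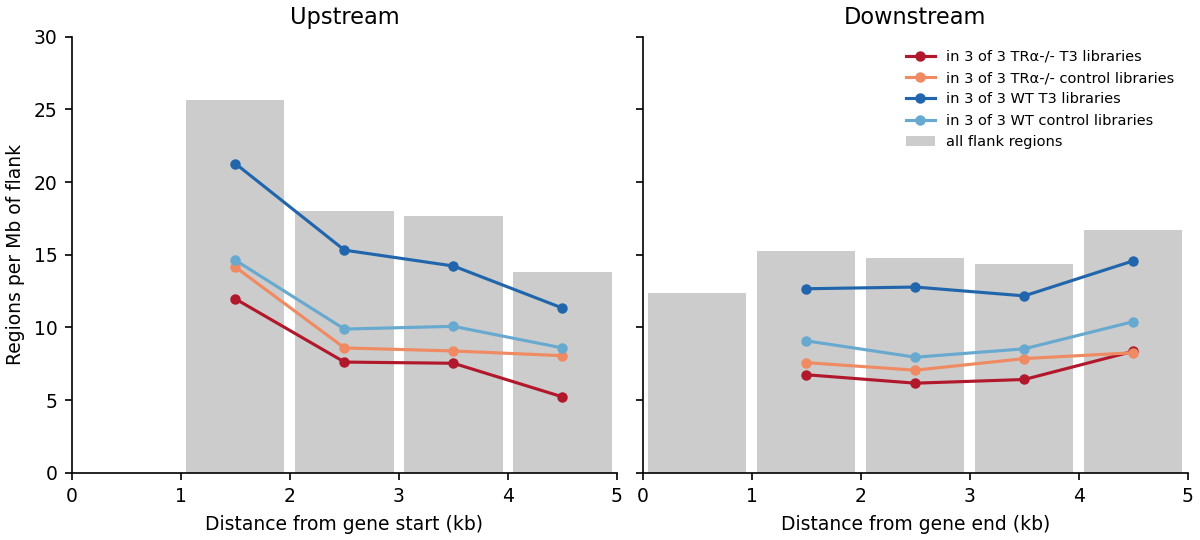
Flank regions per Mb of eligible flank (y axis) in 1 kb steps of distance from the gene start for upstream regions (left) and from the gene end for downstream regions (right). Grey bars are all flank regions and joined points are regions that all 3 libraries of a condition shared, drawn from 1 kb on both sides. Upstream, all 4 lines are highest at 1 to 2 kb and lowest at 4 to 5 kb, and downstream no line declines from 1 to 5 kb.

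The regions had a median width of 897 bp (174 to 7426 bp), with a median of 938 bp upstream and 859 bp downstream. The 117 regions of 2 kb or more were 71 upstream and 46 downstream. Of the 915 upstream regions 98 (10.7%) were narrower than 500 bp, of the 813 downstream regions 112 (13.8%), and of all kept regions 12.5%. Among the 477 regions with a peak in every library, the 12 summits spread over a median of 388 bp (quartiles 158 and 646 bp). In 87 of the 477 (18.2%) all 12 summits lay within 100 bp of each other.

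The nearest genes of the flank regions were 1541 gene IDs, 84.2% of them protein-coding (82.2% of all gene IDs with a full gene row in the peak lists). A single region was found beside 1373 genes, 2 regions beside 149 and 3 beside 19, and 129 genes had regions on both sides. A further neighbour shared the flank in 155 cases, where the region lay within 5 kb of 2 or 3 genes. The genes with 3 regions included myl3, a myosin light chain, ncstn, a subunit of the γ-secretase that cleaves Notch, and wnt11r, a Wnt ligand. Beside myl3, the downstream region at chr6:4086736-4087314 had a peak in 12 of 12 libraries, while the neighbouring one at chr6:4085832-4086184 had a peak in 3 of 3 TRα-/- T3, 0 of 3 TRα-/- control, 3 of 3 WT T3 and 3 of 3 WT control libraries. Regions beside the same gene therefore did not always share their pattern.

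The strongest flank regions were sought only among those with a peak in all 12 libraries. Strength was ranked by −log10 p within each library, and the median rank over libraries was used. Only regions whose nearest gene has a symbol of its own (63.6% of flank regions) were ranked for naming. Among these, the best ranked upstream region lay 4546 bp upstream of adgrl1, a latrophilin receptor of cell adhesion (chr3:124050324-124051318, median rank 36). Its fold enrichment was 34.7, 32.3 and 38.5 in TRα-/- T3, 32.3, 38.3 and 36.9 in TRα-/- control, 42.8, 40.5 and 38.7 in WT T3, and 34.6, 32.8 and 34.7 in WT control libraries. The WT T3 values lay above those of TRα-/- T3 and of WT control, and the other pairs of conditions compared overlapped. The WT T3 libraries ran higher as a whole than the TRα-/- T3 libraries. Over the flank regions with a peak in all 12 libraries, the median fold enrichment was 9.70, 12.1 and 12.1 in WT T3, against 6.99, 7.81 and 8.93 in TRα-/- T3. In WT control it was 6.76, 10.3 and 11.9, which overlapped with WT T3. With libraries normalised to each other, neither adgrl1 difference passed (limma fit given below, adjusted p = 0.81 against TRα-/- T3 and 0.94 against WT control). The next upstream regions by rank lay beside ifnar2.2, an interferon receptor (median rank 52), mansc4 (81.5), myh3, a myosin heavy chain (123), and tbrg4 (134).

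Downstream, the best ranked region lay 4326 bp beyond trip11, which codes for a Golgi protein first found as a partner of TR (chr8:66219894-66220171, median rank 13.5). It was only 278 bp wide, and its fold enrichment ran from 32.2 to 43.8. The regions of capn13, a calpain (median rank 25.5), esrrg (40), clic4, a chloride channel protein (74.5), and dars, the aspartyl-tRNA synthetase (118), followed. The esrrg gene codes for an orphan nuclear receptor, and its region lay 2529 bp beyond the gene end (chr5:8845820-8846575). There the fold enrichment was 34.0, 35.6 and 38.8 in TRα-/- T3, 38.4, 37.9 and 37.4 in TRα-/- control, 39.7, 39.1 and 40.5 in WT T3, and 36.6, 39.5 and 37.4 in WT control libraries. The WT T3 values lay just above those of TRα-/- T3, and the other pairs of conditions compared overlapped. With libraries normalised to each other, the difference of TRα-/- T3 from WT T3 did not pass (limma adjusted p = 0.92).

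In all, 477 flank regions (27.6%) had a peak in all 12 libraries, against 25.7% of all kept regions. They were 243 upstream (26.6% of upstream regions) and 234 downstream (28.8%). The next largest set, 390 regions (22.6%, against 24.0% of all kept regions), met the requirement of 3 of 3 libraries in WT T3 alone. A further 143 (8.28%, against 9.86% of all kept regions) met it in both WT conditions only. In both WT conditions and TRα-/- control 125 met it (7.23%, against 7.63%), and in both WT conditions and TRα-/- T3 105 (6.08%, against 4.63%). In WT control alone 104 met it (6.02%, against 7.90%). Sets without either WT condition were smaller. They were 83 regions in TRα-/- control alone (4.80%, against 4.25% of all kept regions), 31 in TRα-/- T3 alone (1.79%, against 1.52%) and 10 in both TRα-/- conditions only (0.579%, against 0.430%). The set of all 4 conditions and that of WT T3 alone were the largest on both sides, the second with 200 upstream and 190 downstream regions. The rule that chose the regions used these values, so the sets are given as a description.

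**Figure D2:**
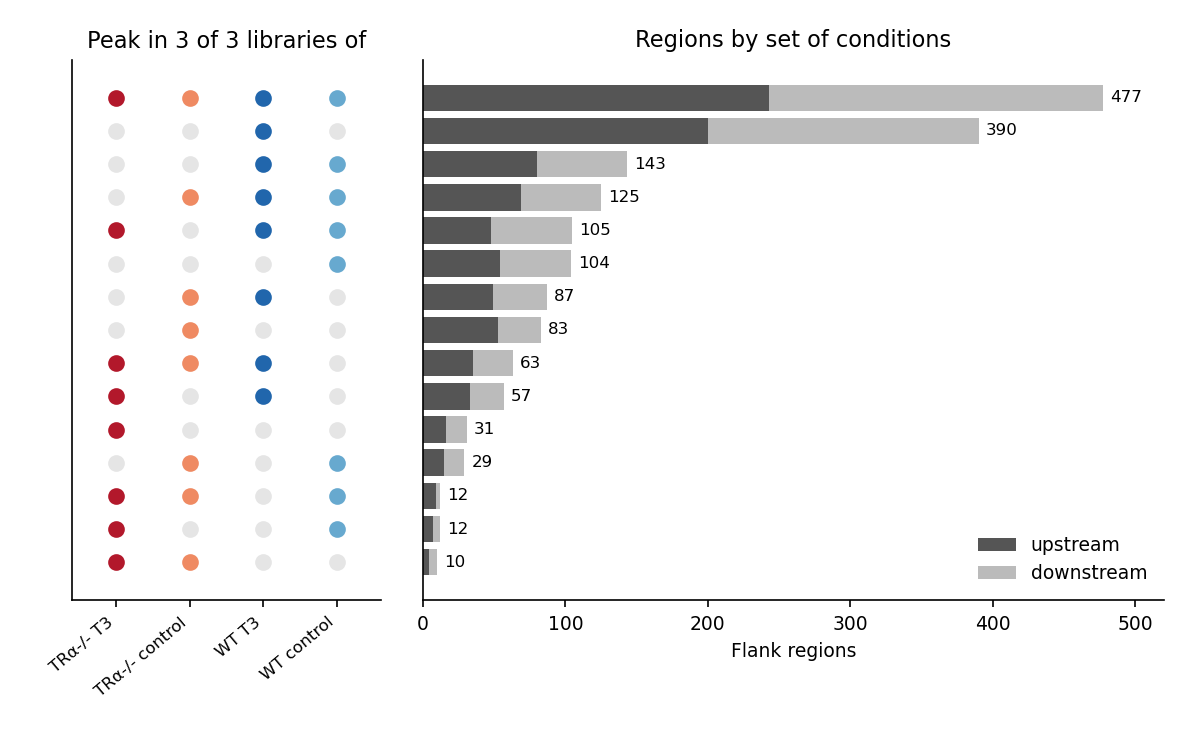
Number of flank regions (x axis) for each set of conditions in which all 3 libraries held a peak, with coloured dots at left marking the conditions of the set and bars split into upstream (dark) and downstream (light). The set of all 4 conditions holds 477 regions (27.6%, against 25.7% of all kept regions). The set of WT T3 alone holds 390 (22.6%, against 24.0%), and the set of both TRα-/- conditions alone 10 (0.579%, against 0.430%).

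No difference between upstream and downstream regions passed a test. The share of regions with a peak, averaged over the 4 conditions, was 77.4% ± 11.4 upstream and 78.0% ± 11.7 downstream (SD, n = 4 conditions), a difference of -0.59 percentage points (exact sign-flip permutation test over the 4 conditions, two-sided, p = 0.5, adjusted p = 0.5). Upstream was higher in 4 of 12 libraries, among them all 3 TRα-/- control libraries. Peaks in upstream regions were wider, with a median of 570 ± 53 bp upstream and 539 ± 44 bp downstream (SD, n = 4 conditions), a difference of 31.1 bp (exact p = 0.13, adjusted p = 0.188). They also stood lower in the ranking of their own library. The median percentile of the strongest peak within its library was 81.8 ± 3.4 upstream and 83.2 ± 2.8 downstream (SD, n = 4 conditions), a difference of -1.42 (exact p = 0.13, adjusted p = 0.188), and it was lower upstream in 12 of 12 libraries, as was the median fold enrichment. With 4 conditions the smallest p is 0.13, so none of the 3 measures could pass 0.05, and the p-values were adjusted over the 3 measures. The 4 conditions share their regions, and the rule that kept the regions used the same peaks. The shares and their p-value are therefore given as a description. The lower percentile upstream turned to a higher one, by 0.224, when the analysis used only peaks with a −log10 q of 5 or more.

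Flank regions held a peak slightly more often than gene-body regions, 77.7% ± 11.5 against 75.7% ± 13.1 (SD, n = 4 conditions), a difference of 1.95 percentage points with the same direction in 11 of 12 libraries (exact sign-flip permutation test, p = 0.13, adjusted p = 0.25). Against regions over 5 kb from any gene, at 76.9% ± 12.4, the difference was 0.782 points and 8 of 12 libraries had it in that direction (exact p = 0.375, adjusted p = 0.375). Neither difference passed the threshold, and the smallest p was again 0.13. As the rule that kept the regions used the same peaks, these shares, library counts and p-values are a description as well.

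Over the conditions, the share of flank regions with a peak was 58.2%, 66.6% and 73.1% in the TRα-/- T3 libraries, 65.4%, 75.0% and 76.1% in TRα-/- control, 88.2%, 94.6% and 95.1% in WT T3, and 66.6%, 82.8% and 90.6% in WT control. TRα-/- T3 and WT T3 did not overlap, while the other pairs of conditions compared did. WT control replicate 1 was far below the other WT control libraries. The rule itself asked for peaks in every library of 1 condition, and 83.7% of the flank regions met it in WT T3, so these shares are a description and not tested. The mean share was 26.7 percentage points lower in TRα-/- T3 (66.0% ± 7.5) than in WT T3 (92.6% ± 3.8), and 7.83 points lower in TRα-/- control (72.2% ± 5.9) than in WT control (80.0% ± 12.3, SD, n = 3 libraries each). T3 libraries were 6.19 points lower than control libraries in TRα-/- intestine and 12.6 points higher in WT intestine.

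To compare 2 conditions on regions chosen without asking for peaks in their own libraries, the shares were also taken over other sets of regions. Each set, formed after the data were seen, held the flank regions that met the requirement in at least 1 of the other 2 conditions. The compared conditions could meet it as well, and every set included the 477 regions with a peak in all 12 libraries. TRα-/- T3 then had a peak in 67.5%, 74.6% and 81.5% of 1250 such regions and WT T3 in 85.4%, 93.4% and 94.0%, a difference of -16.4 points without overlap of the libraries (exact permutation test, two-sided, p = 0.1, the smallest that 3 libraries against 3 can give, adjusted p = 0.4). WT T3 was 5.99 points higher than WT control over 1091 regions (exact permutation p = 0.7, adjusted p = 0.7). The difference of TRα-/- T3 from TRα-/- control was -4.78 points over 1604 regions (exact permutation p = 0.5, adjusted p = 0.67), and that of TRα-/- control from WT control was -7.32 points over 1512 regions (exact permutation p = 0.4, adjusted p = 0.67). None of the 4 comparisons passed 0.05, which this design cannot reach.

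The libraries also differed in their number of peaks. When each library was cut to its 17414 strongest peaks, the number in the smallest library, the sign turned for T3 in TRα-/- intestine, where T3 libraries were then 4.06 points higher than control libraries. The other 3 differences kept their sign at 13.6 points for WT T3 against WT control, -15.9 for TRα-/- T3 against WT T3 and -6.43 for TRα-/- control against WT control. With all peaks and the same 1728 regions, leaving out WT control replicate 1 brought the difference of WT T3 from WT control to 5.91 points, leaving out TRα-/- T3 replicate 1 brought that of TRα-/- T3 from TRα-/- control to -2.29, and leaving out WT control replicate 3 brought that of TRα-/- control from WT control to -2.52.

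**Figure D3:**
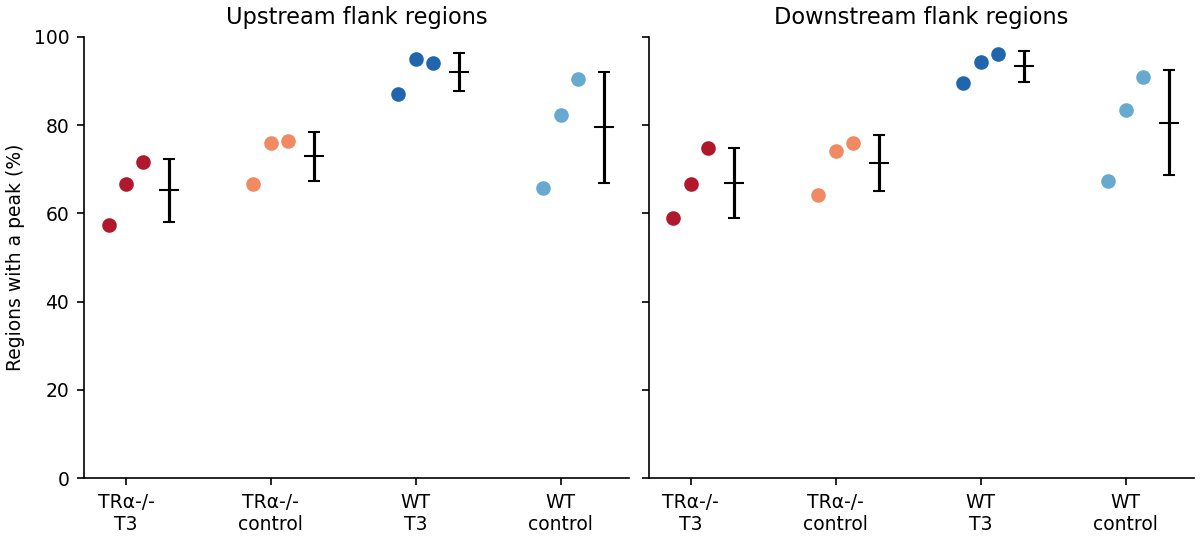
Share of flank regions that held a peak (y axis, percent) in each of the 12 libraries, upstream regions at left and downstream at right. Each point is a library, and the bar beside each condition is the mean ± SD over its 3 libraries. On both sides the WT T3 libraries stand above all TRα-/- libraries, and WT control replicate 1 stands with the TRα-/- libraries.

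The clearest differences were regions found in all 3 libraries of one condition and in none of the other. In TRα-/- intestine, 19 flank regions (1.10%) had a peak in all T3 and no control libraries, where the background over all kept regions was 0.625%, and 40 (2.31%) had one in all control and no T3 libraries, where the background was 2.15%. Both sets lay mostly upstream, 14 upstream and 5 downstream of the 19, and 30 upstream and 10 downstream of the 40, which is 1.53% of upstream and 0.615% of downstream regions for the set with T3, and 3.28% and 1.23% for the set without it. Whether the sides differ was not tested. The TRα-/- T3 libraries had the fewest peaks, and at an equal number of peaks per library the counts were 29 with T3 and 12 without. They also turned round without TRα-/- T3 replicate 1, to 79 with T3 and 58 without.

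The strongest of the 19 lay 4668 bp upstream of thibz, a bZIP transcription factor gene that T3 induces directly in tadpoles (chr3:129209222-129209759, 538 bp, median rank 575). Its fold enrichment was 13.4, 11.6 and 16.8 in TRα-/- T3, with no peak in TRα-/- control, 19.3, 23.4 and 25.2 in WT T3, and 16.1, 15.7 and 21.5 in WT control libraries. TRα-/- control was thus the only condition without a peak, and the 3 TRα-/- T3 values lay below all WT T3 values. The TRα-/- T3 libraries were also lower over flank regions as a whole. Their median fold enrichment was 5.57, 5.61 and 6.14, against 6.24, 7.62 and 7.37 in WT T3. The pattern of 3, 0, 3 and 3 libraries was the same with a −log10 q of 5 or more and with an equal number of peaks.

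A second region stood out by treatment in both genotypes. It lay 4364 bp downstream of slc16a1, the monocarboxylate transporter MCT1 that carries lactate and butyrate in the mammalian gut (chr2:74306811-74307185, 375 bp, median rank 3374). Its fold enrichment was 6.73, 7.23 and 7.72 in TRα-/- T3 and 6.67, 9.17 and 12.5 in WT T3 libraries, with no peak in any of the 6 control libraries. This pattern, singled out after the values were seen, was that of 1 flank region and of 4 kept regions in all (0.026%), and it held with a −log10 q of 5 or more and with an equal number of peaks. No flank region had the reverse, a peak in all 6 control and no T3 libraries, which 2 kept regions had (0.013%).

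Other regions of TRα-/- intestine with T3 only lay upstream of a glutamate tRNA gene, trnae-uuc (fold enrichment 7.50, 6.93 and 7.09 in TRα-/- T3, none in TRα-/- control), and downstream of t2r4, a bitter taste receptor gene (5.44, 7.06 and 7.60, none in TRα-/- control). In WT intestine both regions had a peak in 3 of 3 T3 and 2 of 3 control libraries. The WT control values, 15.1 and 11.7 for trnae-uuc and 10.0 and 8.98 for t2r4, lay above those of TRα-/- T3. Those without T3 only included a region upstream of kcnk2, a potassium channel gene (no peak in TRα-/- T3, 5.42, 7.43 and 3.74 in TRα-/- control), one upstream of isoc2 (none, against 4.24, 6.31 and 7.18) and one downstream of pck1, which codes for the gluconeogenic enzyme PEPCK (none, against 4.97, 7.90 and 5.18). The fourth, downstream of clic3, had no peak in TRα-/- T3 and 4.38, 4.81 and 4.08 in TRα-/- control libraries. In WT intestine the pck1 and clic3 regions had a peak in 3 of 3 T3 and 3 of 3 control libraries. The isoc2 region had one in 2 WT T3 and 1 WT control libraries, and the kcnk2 region in 0 and 2. The median ranks of these 4 regions ran from 6031 to 10250. None of the 4 had a peak in all TRα-/- control libraries at a −log10 q of 5 or more.

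In WT intestine, 45 flank regions (2.60%, background 2.72%) had a peak in all T3 and no control libraries, and 10 (0.579%, background 0.84%) in all control and no T3 libraries. Neither share was above its background. Without WT control replicate 1, when 2 WT control libraries decided, the counts turned round to 68 with T3 only and 96 without T3 only. Leaving out a library also eases the rule for its condition, so what turned the counts was not tested. At an equal number of peaks per library, with all 12 libraries, the counts were 37 and 2. The 45 were 25 upstream and 20 downstream, and 1 of them, that of slc16a1, was also found in all 3 TRα-/- T3 libraries. A region 3970 bp upstream of irf2bpl was present in WT T3 alone (chr8:61437625-61437836), with fold enrichment of 8.23, 11.0 and 9.34 in WT T3 and no peak in the other 9 libraries, and it was 212 bp wide. Beside capn8, a calpain of the mammalian stomach, the upstream region had 12.4, 6.59 and 5.41 in WT T3 and no peak in WT control, and the downstream region of tigit, an inhibitory receptor of lymphocytes, had 8.06, 6.50 and 8.43 in WT T3 and no peak in WT control. The irf2bpl, capn8 and tigit regions kept a peak in all WT T3 and no WT control libraries at a −log10 q of 5 or more. The named regions found without T3 only had median ranks from 11671 to 22015. They included regions upstream of ago1, an Argonaute protein of RNA silencing (no peak in WT T3, 3.67, 3.13 and 4.68 in WT control), and downstream of mos, a kinase of oocyte maturation, and vprbp, a substrate receptor of ubiquitin ligases. At a −log10 q of 5 or more the counts were 40 with T3 only and 2 without T3 only.

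**Figure D4:**
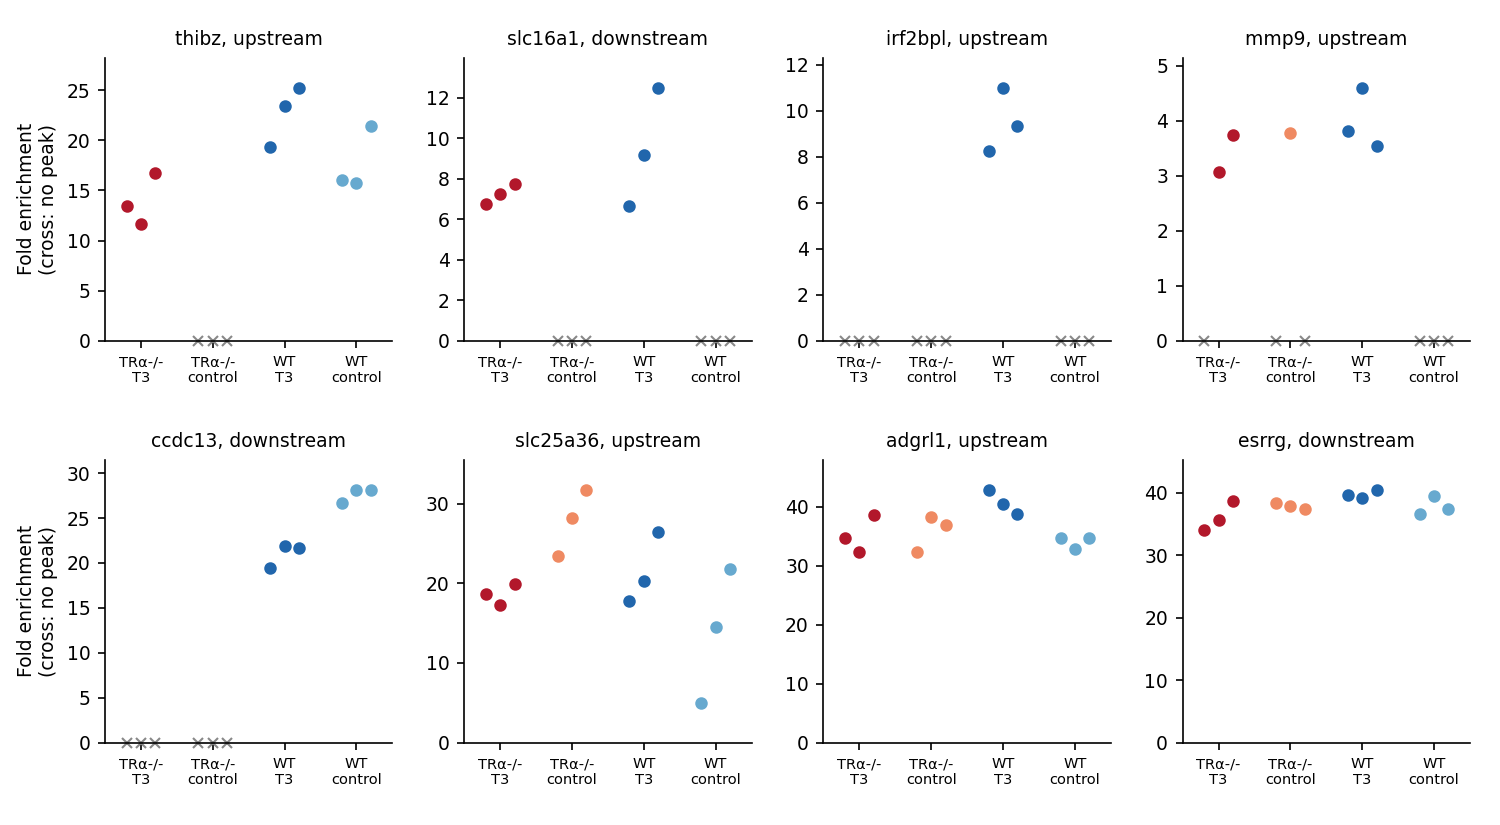
Fold enrichment over local background (y axis, linear from 0, own scale in each panel) of 8 flank regions in the 12 libraries, with a point for each library and a cross where no peak was called. The thibz region lacks peaks in TRα-/- control, the slc16a1 region in both controls, the irf2bpl region everywhere but WT T3, and the ccdc13 region in TRα-/- intestine, while adgrl1 and esrrg stay between 32.3 and 42.8 in all libraries.

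Between genotypes, regions found in WT only outnumbered those found in TRα-/- only. With T3, 166 flank regions (9.61%) had a peak in all WT and no TRα-/- libraries, where the background was 9.81%, and 3 (0.174%, background 0.156%) had the reverse. They were 81 upstream and 85 downstream. Without T3, 44 (2.55%, background 3.54%) had a peak in all WT control and no TRα-/- control libraries, 22 on each side, and 10 (0.579%, background 0.69%) had the reverse. The shares of flank regions lay close to or under those of all kept regions, so that the flanks did not stand apart from the rest. At an equal number of peaks the counts were 57 and 5 with T3 and 36 and 10 without T3, so the difference had the same direction at a smaller size.

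Only 6 flank regions (0.347%, background 0.488%) had a peak in all 6 WT and in none of the 6 TRα-/- libraries, and none had the reverse (background 0.00651%, 1 kept region). The count of 6 was chosen after the values were seen. The strongest lay 4409 bp downstream of ccdc13 (chr6:2555252-2555710, 459 bp, median rank 163), with no peak in the TRα-/- libraries and fold enrichment of 19.5, 21.9 and 21.6 in WT T3 and 26.7, 28.1 and 28.1 in WT control. The WT control values lay above the WT T3 values. The second lay 3609 bp upstream of LOC105945296 (chr10:27302992-27303344, 353 bp, median rank 729) and had 15.4, 14.1 and 12.4 in WT T3 and 22.7, 21.7 and 25.8 in WT control, again with the WT control values above. The third was a region 4171 bp downstream of wnt11r (chr2:169175934-169176262, 329 bp), with 8.04, 10.2 and 10.3 in WT T3 and 13.5, 16.1 and 20.1 in WT control. Its neighbours at 661 and 2307 bp from the same gene end had peaks in 5 TRα-/- libraries each. All 3 regions were narrower than 500 bp, and all 3 kept the pattern at a −log10 q of 5 or more. The other 3, beside or6c3, capzb and LOC101732007, had fold enrichments of 3.46 to 9.55 and median ranks of 14739 to 18897.

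The thibz region was also among the 44 regions of WT control without a peak in TRα-/- control, as was a region upstream of rbl1, a pocket protein that restrains the cell cycle (no peak in TRα-/- control, 9.32, 5.40 and 12.5 in WT control). The rbl1 region had a peak in 2 TRα-/- T3 libraries and 1 WT T3 library. With T3, the region upstream of pard6b, a cell polarity protein, had no peak in TRα-/- T3 and 11.6, 7.85 and 3.85 in WT T3. Of the regions found in TRα-/- T3 but not in WT T3, npc1l1, the cholesterol transporter of the mammalian gut, had 4.07, 3.20 and 3.85 upstream of its start in TRα-/- T3 and no peak in WT T3, and plcxd3 had 3.11, 3.68 and 3.08. In 1 WT control library the npc1l1 region had a peak of 6.31, above its TRα-/- T3 values, while the plcxd3 region had no WT control peak. The regions of TRα-/- control absent from WT control lay upstream of wdr81 (6.08, 5.56 and 9.72 in TRα-/- control) and pgpep1l, and downstream of c21orf33 and mex3c, with median ranks between 10762 and 17027. Each of them also had a peak in 1 or 2 WT T3 libraries.

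Where a peak was present in all 12 libraries, few differences in its height passed the test. The fold enrichment of the 477 regions was compared on the log2 scale with limma, together with all 3944 regions that had a peak in every library, with p-values adjusted by the Benjamini-Hochberg method over the 3944. A single flank region passed an adjusted p of 0.05. It lay 3820 bp upstream of slc25a36, a mitochondrial carrier of pyrimidine nucleotides (chr5:119906627-119907594). Its fold enrichment was 18.7, 17.3 and 20.0 in TRα-/- T3, 17.7, 20.2 and 26.5 in WT T3, 23.4, 28.3 and 31.7 in TRα-/- control, and 4.96, 14.6 and 21.8 in WT control libraries. The lowest TRα-/- control value lay above the highest WT control value. On the log2 scale TRα-/- control was higher than WT control by 1.28 ± 0.23 (SE, n = 3 libraries each, limma adjusted p = 0.0031), and higher by 0.85 without WT control replicate 1 (limma adjusted p = 0.0078). In this comparison 0.532% of all regions fitted passed the threshold, against 0.210% of flank regions.

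No flank region passed in the other 3 comparisons by limma. For TRα-/- T3 against TRα-/- control, 43 of the 477 (9.01%) had an unadjusted p under 0.05, against 9.15% of all regions fitted. Of all regions fitted, 0.786% passed the adjusted threshold. For WT T3 against WT control, 24 (5.03%) had an unadjusted p under 0.05, against 4.49% of all regions fitted, of which 0% passed the adjusted threshold. For TRα-/- T3 against WT T3, 53 (11.1%) had an unadjusted p under 0.05, against 9.33% of all regions fitted, of which 0.0761% passed the adjusted threshold. The same fits on log2 of −log10 p called 1, 1 and 2 flank regions in these 3 comparisons. The median log2 difference of the 477 regions was -0.03, -0.01 and -0.02 in the same order, and 0.04 for TRα-/- control against WT control. A region that lacked a peak in some library was not in the fit.

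A minority of the genes known to respond to thyroid hormone had a flank region. The peak lists name 27 genes of the thyroid hormone response list with a symbol, and 4 (14.8%) had a flank region. Of the 9640 genes of the peak lists with their own symbol, 10.2% had one. The peak lists name only genes that were attached to a called peak, so these are not shares of all genes of the genome. Besides thibz, the response genes with a flank region were myc, hhip and mmp9. The myc gene, a transcription factor of proliferation, had a region 1479 bp upstream (chr6:129004503-129004881) with a peak in 2 of 3 TRα-/- T3, 2 of 3 TRα-/- control, 3 of 3 WT T3 and 2 of 3 WT control libraries. Its fold enrichment was 6.44 and 5.25 in TRα-/- T3, 5.32 and 6.71 in TRα-/- control, 9.32, 15.4 and 11.98 in WT T3, and 5.52 and 11.2 in WT control. The region 3414 bp downstream of myc had the same counts of libraries. WT T3 was the only condition with all 3 libraries in both. The rule kept both regions through WT T3, so this is a description.

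The hhip gene, whose product binds and restrains hedgehog ligands, had a region of 2259 bp centred 1421 bp upstream, with peaks in 1, 2, 3 and 2 libraries of TRα-/- T3, TRα-/- control, WT T3 and WT control. The fold enrichment there was at most 7.11. Upstream of mmp9, the gelatinase B that degrades basement membrane, the region at chr10:16272243-16272882 had 3.06 and 3.75 in 2 TRα-/- T3 libraries, 3.77 in 1 TRα-/- control library, 3.82, 4.60 and 3.55 in WT T3 and no peak in WT control. Its median rank was 22821, and no peak was left in any library at a −log10 q of 5 or more. In all, 5 of the 5 regions beside the 4 response genes met 3 of 3 libraries in WT T3, 1 each in TRα-/- T3 and WT control and 0 in TRα-/- control. Of all flank regions, 83.7% met it in WT T3, 44.4% in TRα-/- T3, 51.3% in TRα-/- control and 58.3% in WT control. The myc, hhip and mmp9 regions were kept through WT T3 alone. The rule thus fixed their count in WT T3, and these counts are a description.

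Among the partners of TR, 2 of 18 genes (11.1%) had a flank region, upstream of the coactivator genes ncoa6 and ncoa3. Of the cell cycle list, 8 of 48 genes (16.7%) had 9 flank regions, 7 upstream and 2 downstream. The regions upstream of cdc27, a subunit of the anaphase-promoting complex, and of cdk1, the mitotic kinase, had a peak in all 12 libraries. The cdk1 region (chr7:8471426-8472542, 1603 bp from the start) had fold enrichments of 5.15, 6.67 and 7.41 in TRα-/- T3, 6.63, 6.15 and 8.82 in TRα-/- control, 8.33, 5.96 and 14.3 in WT T3, and 2.68, 11.4 and 13.9 in WT control, and all groups overlapped. A second cdk1 region, 2062 bp downstream, had a peak in 3 of 3 TRα-/- T3, 1 of 3 TRα-/- control, 3 of 3 WT T3 and 2 of 3 WT control libraries. Upstream of gadd45g, a stress-induced inhibitor of growth, the counts were 1, 0, 3 and 1.

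Of the apoptosis list, 4 of 22 genes (18.2%) had 6 flank regions, 4 of them in all 12 libraries. The region 3984 bp upstream of parp1, a sensor of DNA breaks, had fold enrichments between 11.95 and 18.3 over the 12 libraries (median rank 454). The fadd gene, the adaptor that links death receptors to caspases, had a region on each side with a peak in all 12 libraries, 1128 bp upstream (8.96 to 18.8) and 4471 bp downstream (8.51 to 19.5). The death receptor gene fas had one 377 bp downstream, with 4.24, 4.88 and 3.68 in TRα-/- T3, 2.62, 4.53 and 7.26 in TRα-/- control, 8.69, 8.40 and 10.2 in WT T3, and 2.75, 7.19 and 9.51 in WT control. For fas the values of WT T3 lay above all TRα-/- values and overlapped with those of WT control. With libraries normalised to each other, the fas difference of TRα-/- T3 from WT T3 did not pass (limma adjusted p = 0.53).

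Of the hedgehog, Wnt, Notch and BMP list, 11 of 77 genes (14.3%) had 12 flank regions, 10 upstream and 2 downstream. The Wnt ligand genes wnt9a and wnt3a, 1 region each at 3330 and 2663 bp upstream, had peaks in all 12 libraries, with 8.21 to 24.8 for wnt9a (median rank 453) and 5.06 to 15.3 for wnt3a. In the wnt3a region, WT T3 had 12.8, 15.3 and 14.6, above the TRα-/- T3 values of 5.56, 5.64 and 11.5. With libraries normalised to each other, this difference did not pass (limma adjusted p = 0.54). The regions upstream of dkk1, a secreted Wnt inhibitor, and fzd2, a Wnt receptor, had peaks in 11 and 10 libraries. The matrix list had 6 of 48 genes (12.5%) and 7 regions, and the region upstream of hspg2, which codes for the basement membrane proteoglycan perlecan, had a peak in all 12 libraries (median rank 2647). Downstream of the collagenase gene mmp1, 2 of 3 TRα-/- T3, 2 of 3 TRα-/- control, 3 of 3 WT T3 and 0 of 3 WT control libraries had a peak.

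Of the nuclear receptor list, 3 of 32 genes (9.38%) had a flank region, esrrg, ar (the androgen receptor) and nr3c2 (the mineralocorticoid receptor), all downstream. The intestinal epithelium list had 1 of 36 genes (2.78%), dpp4, a brush border peptidase with a region of 2023 bp downstream in all 12 libraries. None of the 21 genes in the list of muscle, nerve, blood and immune cells had one. This holds for the list alone, since myl3, myh3 and tigit, named above, are outside it and had flank regions. With the 10.2% of all genes of the peak lists with their own symbol as the comparison, the list shares ran from 0% to 18.2%. They were not tested.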

How the data were processed

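TR ChIP-Seq peak lists of 12 libraries were used, 3 technical replicates in each of 4 conditions. Per the study's methods and processing notes, the authors aligned the reads with Bowtie2 (2.3.4.1) to the Xenbase v9.1 assembly, called peaks in each library with MACS2 (2.1.1.20160309) at a q-value under 0.05 without an input library, and attached the nearest annotated features. The authors deposited for each peak the pileup signal in fragments, the fold enrichment as a ratio to local background, and the −log10 p-value and −log10 q-value. Lines were reduced to 1 per peak, and peaks were joined into regions as stated in the report. Genes were the rows of type gene in the peak lists (13705 rows, 13697 gene IDs), so a gene to which no peak was attached is missing. A reference table of another assembly lists 89.4% of these IDs and gave gene kinds alone. Positions are 1-based on v9.1. Pileup was not compared between libraries, and the depth is unknown because the lists hold no read totals.

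Shares were compared with exact permutation tests and exact sign-flip tests, two-sided, with Benjamini-Hochberg adjustment within each family. Fold enrichment was quantile-normalised on the log2 scale and fitted with limma (3.58.1, R 4.3.3, trend on) with a mean per condition. Python 3.11.15 with numpy and pandas was used for the rest. The steps were tested on simulated data. The flank regions, gene lists and tests were chosen with earlier results of these data known. Genes named by rule all have a symbol of their own. They are the nearest genes of regions in the gene lists, of the 5 best ranked regions on each side, and of up to 2 regions by adjusted p in the limma fit. The rule also names the 3 genes with the most regions. For each comparison and direction, it names up to 2 best ranked regions on each side with a peak in all libraries of one condition and none of the other. A region that this rule names is not reported here. The 5 best ranked regions on each side were taken among those with a peak in all 12 libraries. Regions found in all 6 libraries of a treatment or genotype were singled out after the values were seen. Among their nearest genes, LOC105945296 and LOC101732007 have no symbol of their own. The alternatives were a stricter threshold, an equal number of peaks, an overlap of 50%, 2 of 3 libraries, other gene extents, and each library left out. Shares over regions kept through the conditions not compared, and densities without regions reaching toward the gene start, were added after the data were seen.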

Additional observations from a re-analysis of the deposited data

How the results depend on the processing

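A stricter cutoff on peaks, −log10 q of 5 or more, left 871 flank regions (433 upstream, 438 downstream), and turned the upstream minus downstream difference positive for the share (0.696 points) and the percentile (0.224). Counts of regions in all libraries of one condition and none of the other then were 7 (TRα-/- T3, not TRα-/- control), 15 (the reverse), 2 (WT control, not WT T3), 0 (TRα-/- T3, not WT T3), 1 (TRα-/- control, not WT control) and 29 (the reverse), and limma called 0 flank regions for TRα-/- control against WT control, fewer regions being fitted. With an equal number of peaks the T3 difference in TRα-/- intestine turned to 4.06 points and the counts were 29, 12, 2 (WT control, not WT T3), 5 (TRα-/- T3, not WT T3) and 57 (the reverse). With an overlap of 50% of both peaks, TRα-/- T3, not WT T3, gave 6. With 2 of 3 libraries there were 3179 regions (1708 upstream, 1471 downstream). With gene extents from any feature there were 901 upstream and 974 downstream regions, and the upstream share was higher by 0.321 points. Why these values moved was not tested in any of these settings. In limma, median centring called 2 flank regions for TRα-/- control against WT control, and log2 of −log10 p called 1 (TRα-/- T3 against TRα-/- control), 1 (WT T3 against WT control), 2 (TRα-/- T3 against WT T3) and 4 (TRα-/- control against WT control). The slc25a36 call held in all 16 alternatives that could fit it. At the stricter cutoff its region had a peak in 2 of 3 WT control libraries and in all libraries of the other conditions, so it was not fitted.

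Over regions kept through the other conditions, the WT T3 difference was 5.99 points and that of TRα-/- T3 from WT T3 -16.4. When a library was left out, its condition needed only 2 libraries, which added regions. The share differences then ran from -15.6 to 2.15 points (TRα-/- T3 against TRα-/- control, positive without TRα-/- T3 replicate 1), -5.54 to 25.3 (WT T3 against WT control, negative without WT control replicate 1), -39.6 to -18.0 (TRα-/- T3 against WT T3) and -25.0 to 1.44 (TRα-/- control against WT control, positive without TRα-/- control replicate 1). On the same regions, an alternative chosen after seeing the data, they ran from -9.78 to -2.29, 5.91 to 17.9, -30.2 to -22.8 and -14.6 to -2.52. Counts of regions in one condition alone ran from 19 to 79 (TRα-/- T3, not TRα-/- control), 39 to 145 (the reverse), 44 to 182 (WT T3, not WT control), 9 to 96 (the reverse), 3 to 27 (TRα-/- T3, not WT T3), 165 to 432 (the reverse), 10 to 79 (TRα-/- control, not WT control) and 43 to 227 (the reverse). Each moved by over 1.5 times without any 1 of the 6 libraries compared, except TRα-/- T3 replicate 1 (TRα-/- control, not TRα-/- T3, and WT T3, not TRα-/- T3), WT T3 replicate 3 (TRα-/- T3, not WT T3) and WT control replicate 1 (TRα-/- control, not WT control). The limma calls ran from 0 to 1 (TRα-/- T3 against TRα-/- control, 1 without TRα-/- control replicate 1), 0 to 0 (WT T3 against WT control), 0 to 1 (TRα-/- T3 against WT T3, 1 without WT T3 replicate 1, WT control replicate 1 or WT control replicate 3) and 1 to 2 (TRα-/- control against WT control, 2 without TRα-/- T3 replicate 2, TRα-/- control replicate 2 or 3, or WT control replicate 1). With a replicate block, limma called 1 flank region for TRα-/- T3 against TRα-/- control and 2 for TRα-/- control against WT control, and the share differences had exact p = 0.25, the smallest that 3 pairs allow. In each of these comparisons the same-numbered differences had one sign. The rule that kept the regions used the same peaks, so these p-values and signs are a description. The numbers were not taken as pairs, since deviations correlated over 0.1 in only 8 of 18 same-numbered pairs (0.0197 to 0.216), among them all 6 pairs of libraries numbered 1, and 8 of 12 libraries correlated best with their own number.

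The depth of the libraries is unknown, so no limit can be given for a region without a peak. Peaks were called without an input library, so stretches that pile up without the antibody were not removed. Each condition is 1 ChIP DNA sample. Regions were placed by the 13705 genes with a full gene row, and which gene a region acts on was not measured. No flank region was tested for a TR element.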

Other observations

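Of 11264 protein-coding gene IDs with a full gene row in the peak lists 11.5% had a flank region, of 387 lncRNA genes 8.53%, and of 381 tRNA genes 7.35%. In all, 38 flank regions had a tRNA gene as their nearest gene. Both sides of the same gene held a region for 129 genes, and for 16 of these every region had a peak in all 12 libraries. These values are descriptions without a test.

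In each of the 4 conditions, the library numbered 1 had the lowest share of flank regions with a peak (58.2% in TRα-/- T3, 65.4% in TRα-/- control, 88.2% in WT T3 and 66.6% in WT control). It also had the fewest peaks in 3 of the 4 conditions, the exception being TRα-/- control, where it had the most (44196, against 38961 and 42458).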
